A study of Mus musculus with 2 samples.

Results

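General capillary cells (gCap) on the arterial side are lung capillary endothelial cells (ECs). Their RNA leans toward the artery end of the capillary bed when set against gCap cells of the venous side. They were selected on counts of unique molecular identifiers (UMIs, each marking 1 captured RNA molecule) in single barcodes. A gCap cell had 1000 to 5000 genes, under 20% mitochondrial UMIs, at least 0.5% of UMIs from Malat1, at least 2 UMIs of Pecam1 and Cdh5 together, at least 3 of Gpihbp1, Kit and Aplnr together, and at most 1 UMI in each set of aerocyte (aCap), vein and artery genes. An arterial-side cell also had at least 2 UMIs of Ntrk2, Adam23, Gja4 and Fam181b together, and more of these than of Vegfc, Chrm2 and Kcnh1. The rule found 3236 cells among the 15210 that passed the quality limits, 1533 from control lungs and 1703 from B16-F10 lungs. The 7 side genes chose the cells, so their levels are given as a description.

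The study injected phosphate-buffered saline (control) or 400000 cells of the mouse skin melanoma line B16-F10 in 100 µl into the tail vein of C57BL/6 mice, and took the lungs 6 h later. Its methods give an age of 8 to 10 weeks for the male animals of its tail vein injections. Pecam1-positive, Ptprc-negative cells were sorted, and melanoma cells labelled with a green tracker dye were added from the injected lungs. Each group was 1 library of pooled cells, from 2 mice per the labels and from 3 per the study's methods, so there was no replicate check and no test. The mice carried no engineered allele in the descriptions used here. Both groups went through the same digestion and the same sort of Pecam1-positive, Ptprc-negative cells, while sorted melanoma cells joined the B16-F10 library only.

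Blood enters the alveolar capillaries from small arteries and leaves through small veins, and gCap cells line the whole path beside the large, thin aCap cells that serve gas exchange. Along that path capillary ECs change gradually, with Notch signalling, ephrin-B2 and gap junction proteins stronger toward arteries and Nr2f2 stronger toward veins. gCap cells are also known as the capillary cells that respond to injury and inflammation.

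Levels are CPM, the UMIs of a gene scaled to a common library total, in the summed arterial-side cells of a library, which held 12755638 UMIs in control and 15579499 in B16-F10. Ratios are log2 of B16-F10 over control unless a sentence says arterial over venous. Brackets after a ratio or share hold its 95% interval, which covers counting error only and not the difference between mice. "Rose" and "fell" are kept for genes that changed at least 2-fold between the libraries. A lower CPM in a sum of cells cannot tell fewer carrying cells from less RNA per cell.

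The libraries differed in ways that touch these cells. The median arterial-side cell had 7900 UMIs and 3138 genes in control and 8741 UMIs and 3342 genes in B16-F10. Of the 10498 and 11576 barcodes with at least 300 genes, 36 were shared between the libraries. The share of UMIs from free RNA, taken as the level of epithelial genes in members, without the 1% of cells richest in them (170.5 CPM in control and 160.1 in B16-F10), over their level in barcodes of at most 100 UMIs, was 1.28% in control and 2.06% in B16-F10. Doublets were kept. The cells with the highest Scrublet scores were marked, up to a number fixed beforehand at 0.8% per 1000 cells. That number was 7.72% of the cells scored in control and 8.23% in B16-F10. The marked cells included 117 control members (7.63%) and 134 B16-F10 members (7.87%), so these shares lie near the fixed ones.

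Markers of other cells were higher in the B16-F10 sum. Erythroid genes summed to 1041 CPM in control and 2051 in B16-F10, with 49.5% of the B16-F10 UMIs in the richest 1% of cells. The myeloid list went from 26.3 to 94.4 CPM, with 57.6% in the richest 1% of cells, and the pericyte list from 63.7 to 105 CPM. The melanoma list went from 27.0 to 61.4 CPM, the epithelial list from 188 to 297, the smooth muscle list from 16.4 to 31.3, the fibroblast list from 11.5 to 17.4 and the lymphoid list from 2.59 to 9.05. The lymphatic list went from 1108 to 1237 CPM, and the platelet list was at 93.4 and 89.0. Of the melanoma list, 4 of 8 genes had no UMI in control members, and of the muscle list 2 of 5 (Acta2 and Cnn1) and of the lymphoid list 2 of 8 (Cd3e and Cd3g) had none. The pigment gene Dct had 1 and 324 UMIs, 44.8% of the latter in the richest 1% of cells. The part of these markers in the results below was not tested beyond a recount that, after seeing the data, removed cells with at least 3 UMIs of the pericyte, muscle, myeloid, lymphoid, fibroblast or pigment lists and left 1381 and 1284 cells. There the share of arterial-side cells differed by 5.69 points between the libraries, 277 genes rose and 254 fell at least 2-fold, and the median of the rCap list was 1.48, beside the values given below.

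The label was checked on genes that the gates had not used. Arterial-side cells carried the general capillary markers Plvap, at 1133 CPM in control against 49.3 in aCap cells, Glp1r, at 541 against 17.4, and Cd93, at 1717 against 58.6. The aerocyte carbonic anhydrase Car4 was at 150 CPM against 2314 in aCap cells. The cells were not arteries. In control, Bmx, a kinase of arterial ECs, was at 31.7 CPM in arterial-side cells and 319 in artery-marked cells (cells with at least 3 UMIs of Gja5, Stk32a, Sfrp1 and Cytl1), and Mecom, an arterial transcription factor, was at 48.3 and 1162. The ephrin-B2 gene Efnb2 was at 726 and 1362 CPM, and the vein transcription factor Nr2f2 at 16.1 CPM against 317 in vein-marked cells.

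Across a list of 22 artery wall genes, 19 could be compared with the venous side, the gCap cells that lean the other way. In both libraries 17 of 19 were higher on the arterial side, with a median log2 ratio, arterial over venous, of 0.78 in control and 0.81 in B16-F10. The vein wall list ran the other way, with 15 of 16 genes lower in both libraries and medians of -0.88 and -0.58. Over the 11204 genes compared, the medians were 0.01 and -0.00. Against gCap cells of no bias, the artery wall median was only 0.09 in control and 0.07 in B16-F10, and against artery-marked cells it was -3.06 and -3.14. In control, no-bias cells held more Efnb2 than arterial-side cells, 792 against 726 CPM, and more Mecom, 55.6 against 48.3. They held less Bmx, 19.1 against 31.7. In B16-F10, Efnb2 was at 397 CPM in no-bias and 463 in arterial-side cells, and Mecom at 63.1 and 37.0. The arterial label therefore holds against the venous side, while arterial-side and no-bias cells lay close together on these genes.

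**Figure D1:**
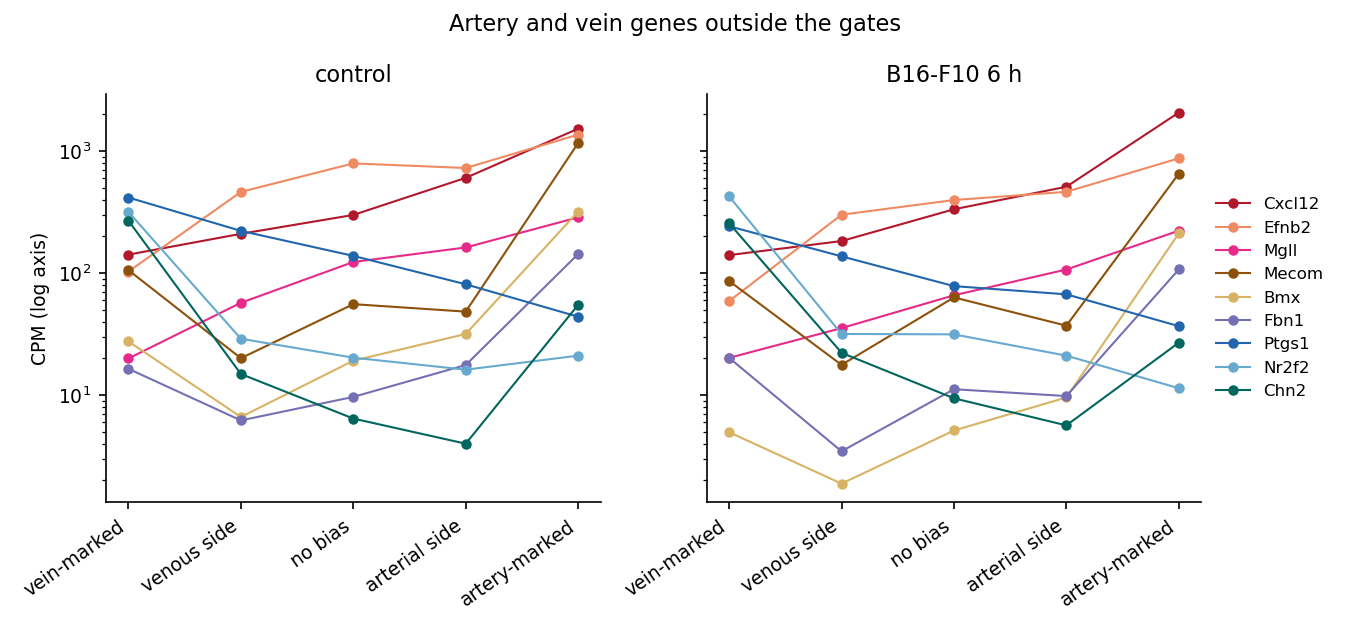
CPM on a log axis of 9 artery and vein genes that no gate used, in 5 endothelial groups ordered from vein-marked to artery-marked cells, in the control (left) and B16-F10 (right) libraries. Each point is 1 sum of cells in 1 library. Cxcl12 and Mgll climb and Ptgs1 declines at every step from the venous side to artery-marked cells, while Mecom is at 48.3 CPM on the arterial side and 55.6 in no-bias cells in control.

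Arterial-side cells made up 30.5% (29.2 to 31.7) of 5034 gCap cells in control and 36.2% (34.8 to 37.6) of 4709 in B16-F10, a difference of 5.71 percentage points (3.84 to 7.58). Venous-side cells were also a larger share, 23.6% in control and 30.4% in B16-F10, and cells of no bias a smaller one, 46.0% and 33.4%. With every cell thinned to 4000 UMIs before the gates, which left out 444 control and 180 B16-F10 gCap cells with fewer, the arterial-side share was 19.6% and 25.0%, a difference of 5.42 points (3.75 to 7.10). The higher share rested on Gja4. With Gja4 taken out of the gate, 500 control cells (9.93%) and 300 B16-F10 cells (6.37%) remained, and the difference turned to -3.56 points (-4.65 to -2.48).

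**Figure D2:**
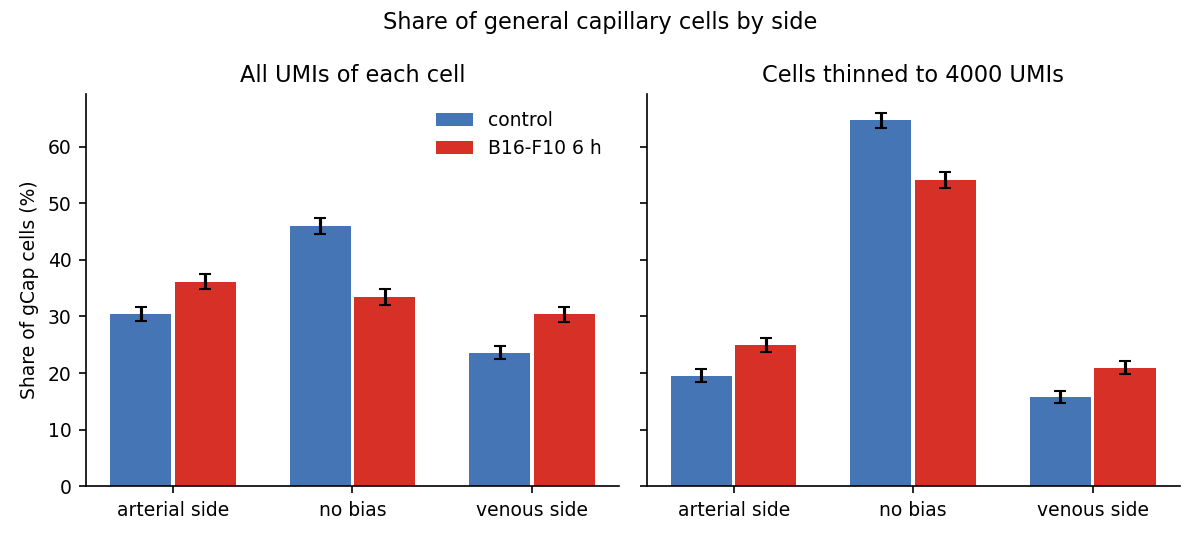
Share of gCap cells (%) on the arterial side, with no bias and on the venous side, for control (blue) and B16-F10 at 6 h (red), with all UMIs (left) and with cells thinned to 4000 UMIs (right). Bars are 1 library each and error bars are exact 95% binomial intervals. The arterial-side share was 30.5% and 36.2% with all UMIs and 19.6% and 25.0% after thinning.

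The 4 genes of the arterial gate lie on different chromosomes of GRCm38, Gja4 at chr4:127311421-127314039 (minus strand), Ntrk2 at chr13:58806569-59133970, Adam23 at chr1:63445891-63596276 and Fam181b at chr7:93079865-93081867 (all plus strand). Gja4 encodes connexin 37, a gap junction protein of arterial ECs. Summed over all gCap cells, whichever side they were given, Gja4 was at 148 CPM in control and 226 in B16-F10. It was also higher in groups that were not chosen on it. In artery-marked cells it was at 208 CPM in control and 403 in B16-F10, in vein-marked cells at 56.8 and 138, and in aCap cells at 6.15 and 11.7. The other 3 genes of the arterial gate were lower over all gCap cells. Ntrk2, the receptor of brain-derived neurotrophic factor, was at 35.4 CPM in control and 23.6 in B16-F10, Adam23, a membrane protein of the disintegrin family, at 15.6 and 6.42, and Fam181b at 26.4 and 22.3. On the venous gate, the potassium channel gene Kcnh1 was at 29.7 CPM and 74.7, the muscarinic receptor gene Chrm2 at 102 and 134, and the lymphatic growth factor gene Vegfc at 59.8 and 53.8.

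**Figure D3:**
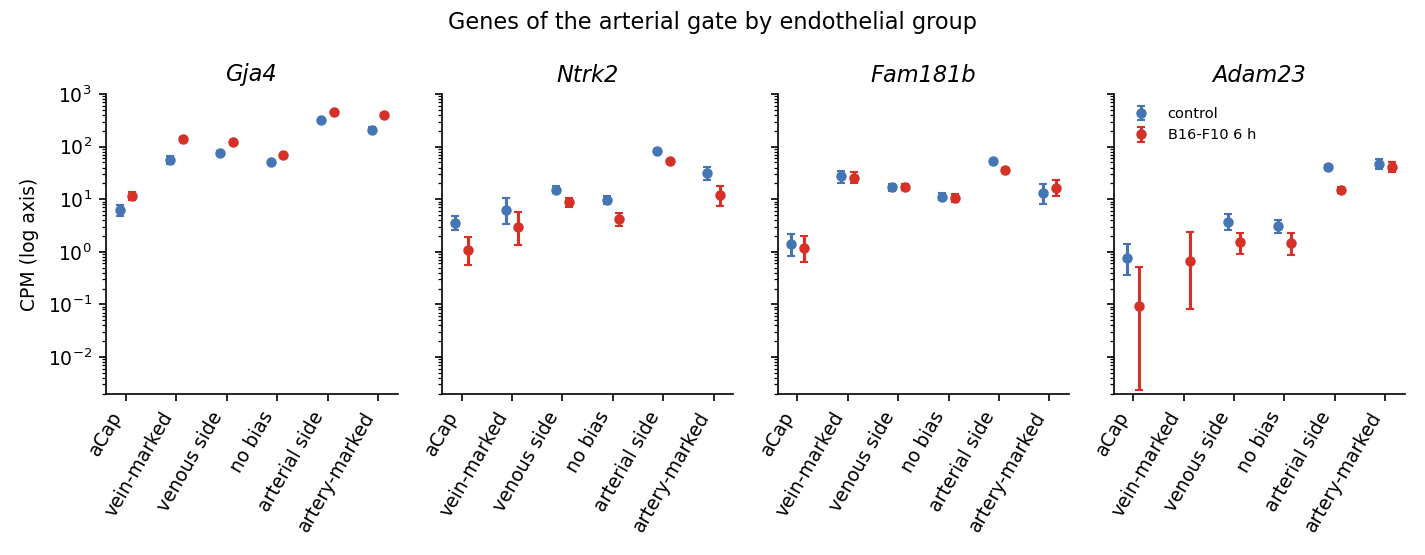
CPM on a log axis of the 4 genes of the arterial gate in 6 endothelial groups, for control (blue) and B16-F10 (red), with exact 95% Poisson intervals. Gja4 is higher in B16-F10 in all 6 groups and Ntrk2 lower in all 6. A group with no UMI (Adam23 in control vein-marked cells) has no point.

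The routes by which cells met the rule shifted accordingly. Cells with Gja4 and none of the other 3 genes were 39.5% of control members and 56.4% of B16-F10 members. Cells with Gja4 and at least 1 of the others were 51.5% and 40.9%, and cells without Gja4 were 9.07% and 2.70%. Cells with Gja4 alone held less Cxcl12 than those with another, 476 against 684 CPM in control and 381 against 684 in B16-F10. Their vein wall list was at 712 against 595 CPM and at 945 against 803. The artery wall list was at 1605 against 1574 CPM and at 1021 against 1116. The part of this change of mix in the B16-F10 ratios below was not tested. A Gja4 UMI was found in 90.9% of control members and 97.3% of B16-F10 members. In aCap cells, which should have little of it, a Gja4 UMI was found in 3.31% and 8.27%, in cells whose median depth was 9390 and 11532 UMIs against 7900 and 8741 in members. Members at the threshold, with exactly 2 gate UMIs, numbered 483 in control and 389 in B16-F10. Just outside lay 848 and 544 cells with 1 gate UMI and 129 and 179 cells with as many venous as arterial UMIs.

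Some genes followed the number of gate UMIs within the members. Cxcl12, a chemokine of arterial ECs, was at 422, 532 and 827 CPM in control members with 2, with 3 or 4, and with 5 or more gate UMIs, and at 364, 426 and 630.5 CPM in B16-F10 members. The taurine transporter gene Slc6a6 was at 74.2, 148 and 285 CPM in control and 64.6, 107 and 207 in B16-F10. The Notch target gene Hey1 went the other way, at 357, 321 and 264 CPM in control and 241, 225 and 201 in B16-F10. In control, Efnb2 (749, 687 and 746 CPM) and Mecom (45.6, 54.3 and 44.4 CPM) showed no order. The artery wall list as a sum showed no order in control, at 1619, 1582 and 1627 CPM, beside 1651 in the cells with 1 gate UMI. In B16-F10 it was at 1016 (982 to 1051), 1054 (1026 to 1083) and 1095 (1071 to 1119) CPM, beside 1040 (1010 to 1070) in the cells with 1 gate UMI, and the intervals of the first and last did not overlap. It differed more with the venous genes. Members with no venous gate UMI held 1777 CPM of the list in control and 1209 in B16-F10, and members with at least 1 held 1361 and 932. Bmx was at 42.2 and 16.3 CPM in these control subsets and at 13.6 and 5.82 in B16-F10.

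Next, the arterial side was compared with the venous side of the same library over all genes, in order to see what else the members share. A gene was counted only where both libraries showed at least 2-fold. This held for 23 genes higher (0.205% of the 11204 compared) and 16 lower (0.143%), so the sides differed in few genes. Bmx was at 31.7 CPM on the arterial and 6.62 on the venous side in control and at 9.56 and 1.88 in B16-F10, a log2 ratio of 2.26 (1.88 to 2.66) and 2.35 (1.73 to 3.02). Mgll, the lipase that breaks down the endocannabinoid 2-AG, was at 162 and 57.1 CPM in control and 107 and 35.4 in B16-F10. Cxcl12 was at 603 and 209.6 CPM, and at 509.6 and 183. The microfibril gene Fbn1 was at 17.6 and 6.20, and at 9.82 and 3.46. Each of these was higher on the arterial side in both libraries, with an interval above 0.

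Among lower-level genes, the transport ATPase gene Atp13a3 was at 15.4 and 2.17 CPM in control and 12.3 and 3.99 in B16-F10, and the guidance protein gene Flrt2 at 12.8 and 4.86, and 3.40 and 1.05. The sugar transporter gene Slc45a4 was at 4.31 and 1.76 CPM, and 2.89 and 1.13. These 3 sat in fewer cells than the first 4. The richest 1% of arterial-side cells held 78.2% of the control UMIs of Slc45a4, 67.9% of Atp13a3 and 48.5% of Flrt2, against 30.7% of Fbn1, 25.7% of Bmx, 13.5% of Mgll and 10.2% of Cxcl12. Other genes that met the rule were held as narrowly. The same cells held 92.6% of the control UMIs of the potassium channel gene Kcnq5, 74.4% of those of the cation channel gene Trpc6, 98.9% of Sgcz, 91.1% of the lymphatic chemokine gene Ccl21a and all of the 53 UMIs of the interferon-induced chemokine gene Cxcl10.

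Lower on the arterial side was Chn2, which encodes a GTPase-activating protein that switches Rac off. It was at 4.0 CPM against 14.9 on the venous side in control and 5.65 against 22.2 in B16-F10. Its log2 ratios were -1.90 and -1.98. The muscarinic receptor gene Chrm3 was at 15.7 against 33.7 CPM, and 10.5 against 30.7. The noncoding RNA Gm30382 was at 129.6 against 364, and 163 against 370. It overlaps Gm5149 on the other strand of chromosome 3, at 5.57 against 14.1 CPM and 8.67 against 18.8. The splicing factor gene Mbnl3 was at 4.0 against 9.41, and 3.21 against 7.30, and the semaphorin gene Sema3b at 1.88 against 5.38, and 3.66 against 7.83. The other named genes on this side, with at most 73 arterial-side UMIs in a library, were Bst1, Car8, Rarb, Epb41l4a, 1700020G17Rik and 9330158H04Rik.

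Interferon genes were slightly lower on the arterial than on the venous side. Of 48 interferon-stimulated genes, 44 were lower than on the venous side in both libraries, with median log2 ratios of -0.20 and -0.19, whereas 3807 of the 11204 genes compared were lower in both. The differences were small and none reached 2-fold in both libraries. Against no-bias cells the medians were -0.14 in control and -0.05 in B16-F10. The list of Notch genes showed no side, with medians of -0.08 and 0.00 over 26 genes. The Notch receptor gene Notch1 was at 238 CPM on the arterial and 226 on the venous side of the control library, and the Notch ligand gene Dll4 at 129.7 and 109.

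The main comparison asked how arterial-side cells differed 6 h after the injection of melanoma cells. Of the 11719 genes that reached 50 UMIs in the libraries together, 357 rose at least 2-fold (3.05%) and 249 fell at least 2-fold (2.12%). The median of all was -0.03, and 90% lay between -0.72 and 0.74. Those that rose included genes of cytokine signalling through JAK and STAT proteins, of leukocyte adhesion and of the matrix, and those that fell included artery, guidance and lipid-handling genes. With the richest 1% of cells of each gene left out, 324 rose and 246 fell. In the smaller set of cells chosen without Gja4, 136 rose and 152 fell among 9406 genes measured.

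The rCap list holds 44 markers of reactive capillaries, which the study defined partly on these libraries, so its direction is not independent evidence. All 44 were above 0 in arterial-side cells, 30 rose at least 2-fold, against 3.05% of all genes, and the median was 1.47, or 1.20 in cells chosen without Gja4. Inhbb, which encodes a subunit of activin B, had 65 control UMIs and 1410 B16-F10 UMIs, or 5.10 and 90.5 CPM, a log2 ratio of 4.15 (3.79 to 4.53). Myc, the growth transcription factor, had 7 and 211 UMIs (4.63, 3.56 to 5.96). Lalba, which encodes the milk protein alpha-lactalbumin, had 6 and 204 UMIs (4.80, 3.65 to 6.26), in 6 and 109 cells. Myc and Lalba were close to absent in control members.

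Several rCap genes rose from a clear control level. The kinase gene Pim3 was at 58.5 CPM in control and 297 in B16-F10 (2.35, 2.23 to 2.46). Bcl3, a nuclear partner of NF-kB, was at 20.9 CPM in control and 119 in B16-F10 (2.51). Cebpd, a transcription factor of the acute phase response, was at 286 CPM in control and 1319 in B16-F10 (2.20), and the atypical chemokine receptor gene Ackr3 was at 49.5 CPM in control and 182 in B16-F10 (1.88). Sbno2, a transcriptional co-regulator downstream of IL-10, was at 38.2 CPM in control and 157 in B16-F10 (2.04), the membrane protein gene Emp1 at 89.1 and 340.3 (1.93), and Scarb1, the receptor of high-density lipoprotein, at 110.2 and 303 (1.46). The smallest ratios of the list were those of the collagen gene Col4a1, 0.31, and the topoisomerase gene Top1, 0.50.

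**Figure D4:**
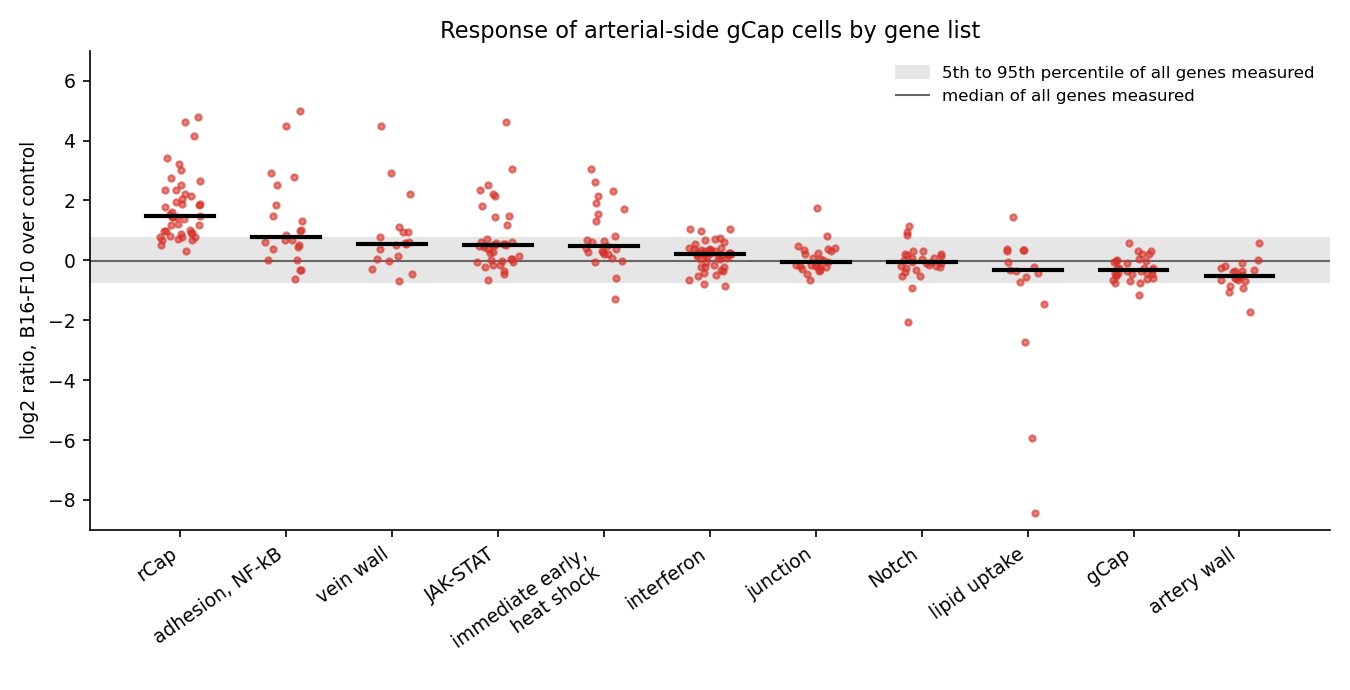
Log2 ratio, B16-F10 over control, of every measured gene of 11 lists in arterial-side gCap cells (points; bars are list medians), with the 5th to 95th percentile of all genes measured shaded. The rCap list lies above 0 throughout with a median of 1.47, and the artery wall list has a median of -0.51 with 18 of 20 genes below 0.

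In the JAK-STAT list, 38 of 40 genes were measured, 29 were above 0, 10 rose and none fell, with a median of 0.52. Socs3, the inhibitor that shuts off cytokine receptors, was at 59.4 CPM in control and 488 in B16-F10 (3.04, 2.93 to 3.15), and a Socs3 UMI was found in 9.40% of control and 49.3% of B16-F10 members at 2000 UMIs per cell (24.7% and 79.0% with all UMIs). Junb was at 155 CPM in control and 686 in B16-F10 (2.15), Cebpb at 8.15 and 28.9 (1.82), and the repressor gene Bcl6 at 12.1 and 33.8 (1.48). Among receptor genes, those that rose were the interleukin-4 receptor gene Il4ra, at 165 CPM in control and 446 in B16-F10 (1.43), and the oncostatin M receptor gene Osmr, at 58.6 and 134 (1.19). The shared receptor chain gene Il6st was at 249 and 359.5 CPM (0.53), and the leukaemia inhibitory factor receptor gene Lifr at 416 and 304 (-0.45). The kinases and STAT factors themselves did not reach 2-fold, with Stat3 at 172 and 246 CPM (0.51), Jak1 at 0.38, Jak2 at 0.52 and Tyk2 at -0.34.

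Since some genes known as STAT targets rose, the promoters of the genes were read for the letters TTCNNNGAA, the core to which STAT dimers bind, which read the same on both strands. Promoters are the 250 bases before to 50 after the start site in RefSeq on GRCm38.p6. The motif was in 9.55% of all 27025 genes with a promoter in the table and in 8.28% of 9044 measured genes with a promoter. It was in 34 of the 253 genes (13.4%) that rose at least 2-fold and in 10 of the 148 (6.76%) that fell. In the rCap list 4 of 29 held it, namely Emp1, Ifitm3, Sbno2 and Tnfrsf1a, and in the JAK-STAT list 5 of 34, namely Bcl6, Cish, Ifnar1, Ifnar2 and Socs3. A match is a run of letters and not a shown binding site. Shown here are the promoters of 4 of the genes just described that rose and hold the motif, 5′ to 3′ on the strand of the gene, with the motif in capitals.
Socs3, chr11:117969317-117969616, minus strand: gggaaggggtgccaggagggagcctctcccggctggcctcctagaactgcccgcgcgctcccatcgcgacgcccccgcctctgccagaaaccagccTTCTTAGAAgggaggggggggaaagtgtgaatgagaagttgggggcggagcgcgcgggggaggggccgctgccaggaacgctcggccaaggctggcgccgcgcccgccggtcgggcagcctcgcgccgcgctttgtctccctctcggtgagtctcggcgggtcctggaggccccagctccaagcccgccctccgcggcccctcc
Bcl6, chr16:23988803-23989102, minus strand: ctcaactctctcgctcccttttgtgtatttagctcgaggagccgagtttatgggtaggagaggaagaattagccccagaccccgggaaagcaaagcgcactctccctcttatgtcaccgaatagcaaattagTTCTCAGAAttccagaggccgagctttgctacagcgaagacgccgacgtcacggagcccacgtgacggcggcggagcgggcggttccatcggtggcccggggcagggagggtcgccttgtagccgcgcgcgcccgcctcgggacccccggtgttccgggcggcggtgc
Sbno2, chr10:80102653-80102952, minus strand: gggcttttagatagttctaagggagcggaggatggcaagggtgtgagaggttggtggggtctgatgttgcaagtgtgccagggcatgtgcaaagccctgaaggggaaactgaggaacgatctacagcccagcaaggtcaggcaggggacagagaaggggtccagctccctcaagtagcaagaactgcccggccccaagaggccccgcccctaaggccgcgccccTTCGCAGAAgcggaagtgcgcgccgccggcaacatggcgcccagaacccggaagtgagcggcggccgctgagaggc
Emp1, chr6:135362681-135362980, plus strand: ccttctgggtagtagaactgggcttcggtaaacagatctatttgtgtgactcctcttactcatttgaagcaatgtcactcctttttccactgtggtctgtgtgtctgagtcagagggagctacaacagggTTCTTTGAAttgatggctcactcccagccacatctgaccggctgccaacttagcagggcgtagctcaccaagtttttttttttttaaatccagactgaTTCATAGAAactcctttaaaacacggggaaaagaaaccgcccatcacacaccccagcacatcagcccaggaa
Bcl6, Sbno2 and Emp1 have 2, 3 and 2 promoters in RefSeq, and the first that holds the motif is shown. A gene was counted where any of its promoters held the motif. In the promoters shown, the motif begins 154 bases before the start site in Socs3, 118 in Bcl6 and 26 in Sbno2. Emp1 has 2 matches, the first at 120 bases before the start. None of the 4 genes of the arterial gate held the letters in this window, and none of the 19 genes with a promoter that were higher on the arterial side did.

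Genes for the adhesion of leukocytes and of NF-kB signalling shifted in the same direction, with 19 of 22 measured genes above 0, 9 that rose, none that fell and a median of 0.78, or 0.38 in cells chosen without Gja4. The selectins were almost absent in control. E-selectin (Sele) had 5 control UMIs and 194 B16-F10 UMIs (4.99, 3.74 to 6.63), and P-selectin (Selp) had 4 and 109 (4.48, 3.08 to 6.38). The richest 1% of cells held 89.7% and 75.2% of these B16-F10 UMIs. The integrin ligand Vcam1 was at 2.43 CPM in control and 18.2 in B16-F10 (2.90), and Icam1 at 101 and 184 (0.86). The NF-kB subunits Relb and Nfkb2 rose, by 1.30 and 1.02 on the log2 scale, while Nfkb1, at 169 and 170.4 CPM, was level (0.01). The inhibitor gene Nfkbia was at 356 and 510.5 CPM (0.52). Myeloid and lymphoid markers were also higher in the B16-F10 sum, as given above.

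Vein wall genes were on the higher side although the cells were chosen on the arterial side. Of 18 measured, 14 were above 0 and 4 rose, with a median of 0.56. The risers were Selp, Vcam1, the glycoprotein gene Lrg1, at 17.8 CPM in control and 81.8 in B16-F10 (2.20), and Emp3, at 20.6 and 44.9 (1.12). The first 2 are in the adhesion list as well. The vein regulators moved less. Nr2f2 was at 16.1 and 21.1 CPM (0.38, 0.13 to 0.64) and the receptor gene Ephb4 at 177 and 194 (0.13), and the prostaglandin synthase gene Ptgs1 was at 80.9 and 66.9 (-0.27).

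Artery wall genes went down. Of 20 measured, 18 were below 0 and 2 fell at least 2-fold, with a median of -0.51 beside -0.03 for all genes. Bmx fell from 31.7 CPM in control to 9.56 in B16-F10 (-1.73, -2.01 to -1.45), and Rasgrf2, a Ras activator, from 20.2 to 9.76 (-1.05). Prkg1, the cyclic GMP-dependent kinase, was at 299.6 and 159.5 CPM (-0.91), Fbn1 at 17.6 and 9.82 (-0.84), and Efnb2 at 726 and 463 (-0.65). The 2 exceptions were the sulfatase gene Sulf1, at 24.1 and 35.6 (0.57, 0.36 to 0.77), and the netrin receptor gene Unc5b, at 11.7 and 11.7 (0.01, -0.31 to 0.33). The median of the list was at a like level elsewhere, -0.55 on the venous side, -0.54 in no-bias cells and -0.59 in artery-marked cells.

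The Notch pathway, which maintains arterial identity, had no common direction. The median of 28 measured genes was -0.05, 1 rose and 1 fell. Among the ligands, Jag1 was at 41.6 CPM in control and 21.7 in B16-F10 (-0.94, -1.14 to -0.74), Jag2 at 35.7 and 29.6 (-0.27), Dll1 at 31.3 and 59.7 (0.93), and Dll4 at 129.7 and 126 (-0.04, -0.13 to 0.06). The receptors Notch1 and Notch4 were at 0.20 and 0.03 on the log2 scale. Among the targets, Hey1 was at 312 and 217 CPM (-0.52), Hey2 fell from 62 to 18 UMIs (-2.07, -2.92 to -1.30), Hes1 was at 231 and 288 CPM (0.32), and Heyl rose from 1.41 to 3.15 (1.16, 0.35 to 2.02). The letters GTGGGAA, bound by the Notch partner RBPJ and read on both strands, were in 7.25% of all promoters and 7.05% of those of genes measured. They were in 8.30% of the promoters of genes that rose, 13.5% of those of genes that fell, 2 of 16 of the artery wall list (Fbn1 and Pcsk5) and 4 of 24 of the Notch list. They cannot lie inside TTCNNNGAA.

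Transcription factors of endothelial identity were mostly lower, with 10 of 31 above 0, 1 that rose, 3 that fell (Hey2 among them) and a median of -0.24. Sox11 fell from 241 to 107 CPM (-1.17, -1.26 to -1.08), and Tcf15, a regulator of fatty acid transport in capillaries, from 52 to 23 UMIs (-1.47). Sox17 and Sox18, partners in arterial and vascular development, were at 323 and 259 CPM (-0.32) and 491 and 344 (-0.51). Mecom was at 48.3 and 37.0 (-0.38). Foxf1, which marks lung capillary endothelium, went the other way, at 367 and 494 CPM (0.43), and Meox1 rose from 4.23 to 8.73 (1.04). The gCap list of 32 genes had 7 genes above 0, 1 that fell (Sox11) and a median of -0.34.

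Genes tied to blood flow and BMP signalling showed no common direction, with 11 of 26 above 0, none that rose, 1 that fell and a median of -0.12. The flow-induced factors Klf2 and Klf4 were at 738 and 952 CPM (0.37) and 406 and 561 (0.47). The vasoconstrictor gene Edn1 was at 483 and 263 (-0.88, -0.94 to -0.82) and the BMP target Id2 fell from 125 to 50.6 (-1.30). The inhibitory Smad gene Smad6 was at 689 and 423 (-0.70), and nitric oxide synthase Nos3 was level at 28.0 and 28.4 (0.02). Smad9, a Smad factor of BMP signalling that is outside the list, fell from 154 to 50 UMIs (-1.91, -2.40 to -1.44).

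Among angiogenic ligands and receptors, 3 of 33 rose and 2 fell, with a median of -0.10. Apart from Inhbb and Ackr3, the early endothelial gene Apold1 rose from 3.37 to 13.3 CPM (1.98). Sema5a, a semaphorin, fell from 1173 to 191 UMIs, or 92.0 to 12.3 CPM (-2.91, -3.14 to -2.69), and Cxcr4, the signalling receptor of Cxcl12, from 24.6 to 7.38 CPM (-1.74, -2.06 to -1.42). The ligand Cxcl12 was at 603 and 509.6 (-0.24), and its other receptor Ackr3 rose. The vascular endothelial growth factor gene Vegfa was at 333 and 389.8 CPM (0.23) and its receptor Kdr at 350.4 and 353 (0.01). Calcrl and Ramp2, which form the adrenomedullin receptor, were at 6294 and 4378 (-0.52) and 3452 and 2637 (-0.39), and the angiopoietin receptor gene Tek was at 1112 and 806 (-0.47).

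Matrix and protease genes had a median of 0.54, with 17 of 21 above 0, 7 that rose and none that fell. The protease gene Adamts9 was at 108 CPM in control and 373 in B16-F10 (1.79), the transglutaminase gene Tgm2 at 134 and 304 (1.18), and the protease inhibitor gene Timp1 rose from 13 to 121 UMIs (2.93). Col18a1 and Col15a1, collagens of the basement membrane zone, rose from 1.33 to 7.77 (2.54) and from 6.27 to 15.9 CPM (1.34). The collagen IV gene Col4a2 was at 547 and 729 (0.41). The metal-binding metallothioneins rose from near absence. Mt1 had 33 and 755 UMIs (4.23, 3.72 to 4.78) and Mt2 had 5 and 212 (5.12, 3.87 to 6.76), while the other 6 genes of metal handling lay between -0.45 (Slc30a1) and 0.49 (Slc39a8).

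Immediate early genes, which respond within minutes to stimuli and also to tissue digestion, rose in part, and no heat shock gene did. The combined list had 21 of 25 above 0, 8 that rose, 1 that fell and a median of 0.49. The 8 were Egr1, at 12.0 CPM in control and 99.9 in B16-F10 (3.06, 2.82 to 3.31), Atf3 (2.62), Fos, at 46.7 and 232 (2.31), Junb, Ier3 (1.93), Zfp36 (1.73), Fosb (1.55) and Ier2 (1.32). Jun itself was at 1389 and 1737 CPM (0.32). The heat shock protein genes ran from -1.28 (Hspa1b, the gene that fell) to 0.66 (Hspe1). Both libraries were digested in the same way, and the part of digestion in these values was not tested.

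Interferon genes shifted little. Of 48 measured, 35 were above 0, 2 rose and none fell, with a median of 0.21. The 2 were the GTPase genes Gbp5, from 24.3 to 50.6 CPM (1.06), and Igtp, from 39.8 to 82.5 (1.05), which belong to the interferon-gamma branch. Isg15, typical of type I interferon, was at 113 and 166 (0.56) and Ifit1 at 78.0 and 88.6 (0.18). The lowest ratios of the list were those of Ifi213 (-0.84), Ifi206 (-0.80) and Ifi208 (-0.67), which did not reach 2-fold.

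Lipid-handling genes held the 2 largest declines among genes with at least 100 UMIs, and these sat in few cells. Fabp4, a fatty acid carrier of capillary ECs, had 3895 control UMIs and 78 B16-F10 UMIs (-5.93, -6.27 to -5.61), but 92.6% of the control UMIs were in the richest 1% of cells, and without those cells the ratio was -2.94. Rbp7, a retinol carrier, had 281 UMIs and 1 (-8.42, -13.73 to -5.93), with 97.9% in the richest 1% of control cells. A small number of control members thus carried nearly all of both. Genes spread over more cells changed less, with the scavenger receptor Cd36 at 2531 and 2183 CPM (-0.21) and lipoprotein lipase, Lpl, at 1074 and 799 (-0.43). The list of 16 had a median of -0.33, with 1 that rose (Scarb1) and 4 that fell, the others being Tcf15 and Pparg, from 43 to 8 UMIs (-2.71).

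Junction genes had no common direction, with 12 of 25 above 0, 1 that rose, none that fell and a median of -0.04. The tight junction gene Cldn5 was at 2054 and 2156 CPM (0.07, 0.05 to 0.09). The junction phosphatase gene Ptprb was at 3498 and 2575 (-0.44), the catenin gene Ctnnd1 at 603 and 487 (-0.31), and Esam at 529.7 and 674 (0.35). The riser was Gja1 (connexin 43), from 2.98 to 10.1 CPM (1.76, 1.24 to 2.31). Cdh5 and Pecam1, which the gate used, were at 1884 and 1832 CPM and at 1195 and 1194.

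The remaining lists moved little. Of 16 glucocorticoid and clock genes, 5 were above 0, with a median of -0.25. Fkbp5, a glucocorticoid target, rose from 21.3 to 51.2 CPM (1.26), but the target Tsc22d3 was at 78.6 and 52.7 (-0.58). In the neurotrophin pathway to which the gate gene Ntrk2 belongs, 11 of 20 genes were measured and 3 were above 0. The adaptor gene Sh2b2 rose from 1.41 to 7.19 (2.35), and the ligand genes Bdnf and Ntf3 had 3 and 5 UMIs in control and 9 and 0 in B16-F10. The aCap list, at 8 of 11 above 0 and a median of 0.27, had no gene past 2-fold.

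Some genes were named only for the size of their ratio. Ch25h, which makes 25-hydroxycholesterol, had 5 control UMIs and 140 B16-F10 UMIs (4.52, 3.26 to 6.16), with 76.4% of the latter in the richest 1% of cells. Gpnmb, Cd52 and Arhgap15 had 5, 5 and 7 UMIs in control and 98, 96 and 103 in B16-F10, with 49.0%, 94.8% and 100% of the latter in the richest 1% of cells. Gpnmb is known from macrophages and pigment cells and Cd52 from leukocytes. Among the genes that fell, the ether lipid enzyme gene Agmo went from 105 to 7 UMIs (-4.20), the cadherin gene Cdh13 from 110 to 17 (-2.98), the aspartoacylase gene Aspa from 105 to 33 (-1.96), and Flrt2 from 163 to 53 (-1.91). In that order, the richest 1% of control cells held 75.2%, 83.6%, 40.0% and 48.5% of their control UMIs. In no-bias cells the ratios of these genes were -5.43, -0.54, -2.19 and -1.21. The noncoding or uncharacterised genes Gm6213 (-3.42), 4930517O19Rik (-1.99) and 9630013A20Rik (-1.93) and the olfactory receptor gene Olfr655 (-2.51) complete this set. For Olfr655, 96.0% of the control UMIs were in the richest 1% of cells, and its ratio in no-bias cells was 1.00.

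The rCap list was then read cell by cell, to see how many arterial-side cells had moved. Each cell was thinned to 2000 UMIs, which left out 1 control and 2 B16-F10 members, and the UMIs of the list were summed. The median cell had 20.5 in control and 37 in B16-F10. The 95th percentile of control members was 35 UMIs. Above it lay 4.90% of control members (75 cells, 3.87 to 6.10) and 52.7% of B16-F10 members (897 of 1701 cells, 50.3 to 55.1). The scores formed a continuous range, with 68 control and 194 B16-F10 cells within 2 UMIs of the threshold, so the share is a point on a range and not a class of cells. In B16-F10 the share above the same threshold was 50.3% (47.8 to 52.8) in no-bias cells and 50.2% (47.6 to 52.8) in venous-side cells, intervals that overlap that of the arterial side. Free RNA, with an estimated share of 1.28% in control and 2.06% in B16-F10, enters such scores, and its part in the score was not tested. With free RNA subtracted from the sums, the median ratio of the list was 1.48. Chosen without Gja4, 35.5% of B16-F10 cells lay above the threshold set in the same way.

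**Figure D5:**
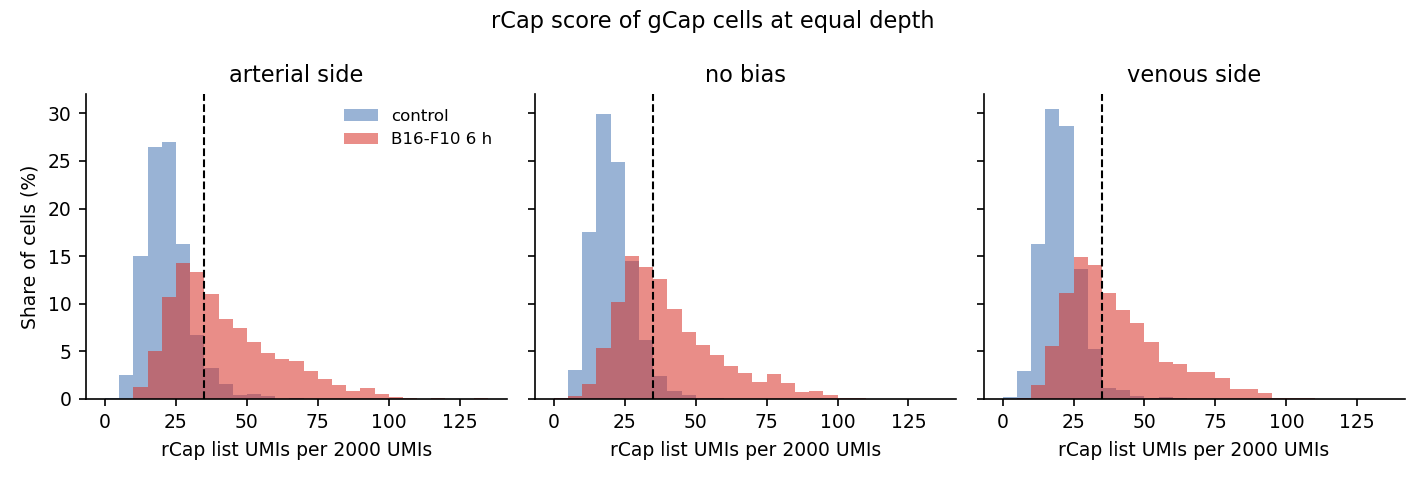
Share of cells (%) by rCap list UMIs per cell after thinning to 2000 UMIs, in bins of 5, for arterial-side, no-bias and venous-side cells of the control (blue) and B16-F10 (red) libraries. The dashed line is the 95th percentile of control arterial-side cells, 35 UMIs. The B16-F10 distribution is shifted and broadened to the right in all 3 groups, with 52.7%, 50.3% and 50.2% of cells above the line. In control, 4.90%, 2.83% and 2.45% of cells lay above it.

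Finally, the response on the arterial side was set beside that of the other gCap cells. Against the venous side, 10754 genes could be compared, with a median difference in log2 response of -0.01. The list medians differed little, by -0.03 for the rCap list, 0.05 for interferon and 0.02 for artery wall genes, and by 0.25 for the vein wall list. The lists of other cells differed more, by a median of 1.74 over 4 erythroid genes, 1.22 over 2 myeloid genes, 0.93 over 5 epithelial genes, 0.68 over 2 lymphatic genes and 0.58 over 6 pericyte genes, all higher on the arterial side, and by -0.48 over 2 melanoma genes. Their part in the differences that follow was not tested. Of 44 rCap genes, 14 had a larger ratio on the arterial side and 30 a smaller one. Over all 10754 genes compared, 5200 had a larger ratio on the arterial side. Ackr3 rose more on the arterial side, by 1.88 against 1.35 (difference 0.53, 0.36 to 0.69), as did Pim3, by 2.35 against 2.02 (difference 0.33, 0.17 to 0.49). Each interval of the difference lay above 0. The ratio of the rCap gene Inhbb was smaller, 4.15 against 4.83 (difference -0.68, -1.33 to -0.03). Its B16-F10 level was 90.5 CPM on the arterial and 82.5 on the venous side. In control it was at 5.10 and 2.89 CPM (65 and 28 UMIs). Ratios were also smaller in size for Egr1, 3.06 against 3.78 (difference -0.72, -1.08 to -0.36), and Vcam1, 2.90 against 4.19 (difference -1.29, -2.19 to -0.39). The ratio of Sema5a was -2.91 against -3.44 (difference 0.54, 0.14 to 0.94), likewise smaller in size.

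The genes with the largest differences between the sides were mostly carried by few cells. Ifi27l2a, an interferon-induced gene, was at 1.55 against -0.54, the mitochondrial protein gene Chchd10 at 2.57 against 0.50, Rorb at -0.06 against -2.10, Ccl21a at 2.41 against 0.57, the immunoglobulin gene Igkc at 2.86 against 5.59, and the guidance ligand gene Slit2 at -1.53 against 0.31. For Ifi27l2a, Rorb, Ccl21a and Slit2, the richest 1% of arterial-side cells held 74.8%, 72.8%, 94.8% and 89.5% of the B16-F10 UMIs. For Chchd10 and Igkc it was 42.0% and 81.2%. Rbp7, Olfr655, Cdh13 and Lalba had venous-side ratios of -4.78, -0.14, -0.83 and 6.69, against -8.42, -2.51, -2.98 and 4.80. Their differences were -3.64 (-7.14 to -0.15), -2.38 (-3.14 to -1.61), -2.15 (-3.08 to -1.22) and -1.89 (-4.22 to 0.43). The interval of Lalba included 0, and its control UMIs were 6 on the arterial and 2 on the venous side. Rbp7 had 1 and 2 UMIs on these sides in B16-F10.

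Compared with no-bias cells, some rCap and early genes had smaller ratios on the arterial side. Inhbb changed by 4.15 (3.79 to 4.53) on the arterial side, 4.83 on the venous side and 5.14 (4.87 to 5.43) in no-bias cells, and Egr1 by 3.06, 3.78 and 4.35 (4.12 to 4.59). At 2000 UMIs per cell, an Inhbb UMI was found in 8.99% of arterial-side, 8.18% of venous-side and 16.1% of no-bias cells of the B16-F10 library (1.11%, 0.338% and 1.26% in control), and a Myc UMI in 1.70%, 2.24% and 7.90%. With all UMIs an Inhbb UMI was found in 19.8%, 19.3% and 27.6%, in cells whose median depth was 8741, 8913 and 7996 UMIs. Socs3 ran the other way, in 49.3%, 51.6% and 42.3% of cells. For these 3 genes the intervals of the arterial and venous sides overlapped, and that of no-bias cells overlapped neither.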

How the data were processed

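Cells sorted from the lungs of control and B16-F10-injected C57BL/6 mice were profiled by droplet single-cell RNA sequencing, 1 library per group. The authors deposited unfiltered matrices of whole-number UMI counts per gene and barcode for both libraries (85794655 and 104978816 UMIs). The submitters' processing notes name Cell Ranger 7.2.0, Seurat 4.4.0 and the mm10 genome. The matrices keep free RNA and doublets, and both were kept in the main results.

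Counts were read with Python 3.11.15 (numpy 2.4.6, scipy 1.17.1, pandas 2.3.3, scanpy 1.11.5, matplotlib 3.10.9). Cells were selected by the gates given in the report. Artery-marked, vein-marked and aCap cells met the same quality limits and had at least 3 UMIs of the matching gate set. Counts were summed per group and library and scaled to a common total (CPM). Genes that reached 50 UMIs in the libraries together were compared. Ratios have exact conditional binomial intervals, sums exact Poisson intervals, shares Clopper-Pearson intervals and differences of shares Newcombe intervals, all at 95%. With 1 library per group nothing was tested. The scripts were tested on simulated data.

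The members and gene lists were chosen with earlier results of these data known. Named genes were the 12 highest and 12 lowest B16-F10 ratios among genes with at least 100 UMIs, without gate genes and other-cell markers, the 12 highest and 12 lowest arterial over venous ratios by the smaller size in the 2 libraries, the 6 highest and 6 lowest differences of response, and list genes. A gene that met the rule is not reported here. The alternatives changed the limits on genes and mitochondrial UMIs, doublets, gates, depth, free RNA, centring, the UMI minimum and the score threshold. Promoters came from RefSeq on GRCm38.p6 and gene positions from GENCODE.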

Additional observations from a re-analysis of the deposited data

Results flagged for a closer look

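Hemoglobin genes went opposite ways on the arterial and venous sides, and the difference was not tested. On the log2 scale, B16-F10 over control, Hbb-bt was at 1.44 on the arterial side and -0.74 on the venous side, Hbb-bs at 0.94 and -0.52, Hba-a1 at 0.87 and -0.82, and Hba-a2 at 0.98 and -0.80. The richest 1% of arterial-side cells held 49.5% of the erythroid UMIs of the B16-F10 library and 35.6% of those of control.

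Pigment genes were also found in barcodes that the limit of 5000 genes left out. In the B16-F10 library, 76 such barcodes met the arterial-side gates and held 25.7 CPM of pigment genes (18.9 to 34.2), against 3.52 CPM (0.726 to 10.3) in 39 control barcodes. Within the limits, members held 43.4 CPM in B16-F10 and 1.25 in control.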

How the results depend on the processing

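Each comparison rests on 1 library per group, so the intervals leave out the spread between mice, and genes under 50 UMIs were not measured. No paired analysis was possible because only 1 library stood on each side. Of 264 values of the comparisons under other settings, 242 stayed inside a tolerance and 21 moved out of it. The last 1, the share, turned from a value whose interval excluded 0. The tolerance was the counting interval of the value reported, or 1.5 times for counts of genes. For a list median it was the counting interval of the gene or genes in the middle of the list. That is not an interval of the median, so staying inside it is a loose check. The Notch medians lay close to 0 and changed sign inside that tolerance, from -0.09 to 0.02 for B16-F10 over control and from -0.03 to 0.02 for arterial over venous in B16-F10. Of 292 single-gene ratios, 257 stayed inside, 34 moved and 1 changed direction.

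Most of the moves came from taking Gja4 out of the gate, which left 500 and 300 cells. The difference in share became -3.56 points, and 136 genes rose and 152 fell at least 2-fold. The median ratios, B16-F10 over control, became 1.20 for rCap, 0.38 for adhesion and NF-kB, 0.31 for JAK-STAT, 0.36 for early and heat shock genes and -0.26 for artery wall genes. The medians of arterial over venous became 0.94 in control and 1.04 in B16-F10 for artery wall genes, -0.79 in B16-F10 for vein wall genes and -0.37 in B16-F10 for interferon genes. The share of cells above the rCap threshold became 35.5%, and Arhgap15 turned to -0.42. The cause was not tested.

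With no upper limit of genes, 641 genes rose at least 2-fold, the early and heat shock median was 0.69 and the artery wall median of arterial over venous in B16-F10 was 0.65. It was 0.67 with Adam23 and Fam181b out of the gate. With cells thinned to 4000 UMIs, the vein wall median of arterial over venous in control was -1.18. A minimum of 20 UMIs, which admits 13340 genes, gave 581 higher and 468 lower. The rCap share was 32.2% above the 99th percentile of control, and 55.4% at 4000 UMIs per cell.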
